A study of Mus musculus with 24 samples.

Results

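Avp and Oxt encode the precursors of vasopressin and oxytocin, and they were followed here as the 2 members picked by gene symbol from 45706 genes measured in mouse hypothalamus. The data came from 24 polyA RNA libraries of whole hypothalamus, 8 in each of 3 groups. All mice were diet-induced obese, weighed 53 g on average and were housed in pairs. The saline group received isotonic saline, the PSD-95i group received UCCB01-147 at 25 mg/kg and the PICK1i group received mPD5 at 56 mg/kg. Injections were given once a day for 5 days, and the hypothalamus was frozen 2 hours after the last one, in the morning. Neither strain, sex nor age is stated in the labels. The treatment text counts 6 saline mice while 8 saline libraries were labelled, and nothing in the labels says which mouse a library came from. The p-values below therefore measure the spread between these libraries, each taken as independent. No cage is given for a library, so cage mates could not be taken into account. PSD-95 and PICK1 are scaffold proteins of glutamatergic synapses, and the study's title names the aim of targeting them to treat obesity.

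Vasopressin and oxytocin are made by large (magnocellular) neurons of the paraventricular and supraoptic nuclei, which send axons to the posterior pituitary and release the hormones into blood. Vasopressin acts on the kidney to retain water and on vessels to constrict them. Oxytocin drives milk ejection and uterine contraction, and within the brain it reduces food intake. Smaller paraventricular neurons also make either peptide, and the suprachiasmatic nucleus, the circadian clock of the hypothalamus, contains vasopressin neurons but is not a source of oxytocin. Each precursor is cut into the hormone and a carrier protein, neurophysin, and the vasopressin precursor also yields copeptin.

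The 2 genes are neighbours that arose by duplication and face each other tail to tail on chromosome 2 (GRCm38). Oxt (ENSMUSG00000027301) lies on the plus strand at chr2:130576173-130577054 and Avp (ENSMUSG00000037727) on the minus strand at chr2:130580620-130582554, with 3565 bases between their ends in GENCODE M21. Each has 3 exons and 1 transcript in the deposited table, of 577 bases for Avp and 537 bases for Oxt. Exon 2, which is coding throughout and encodes the middle of neurophysin, is 202 bases long in both. The 2 copies of exon 2 are printed because they are the stretch in which reads of the 2 genes cannot always be separated. They were read from the GENCODE M21 transcripts, 5′ to 3′ on each gene's own strand, and capitals mark the bases that differ.
Avp exon 2, chr2:130581056-130581257, minus strand: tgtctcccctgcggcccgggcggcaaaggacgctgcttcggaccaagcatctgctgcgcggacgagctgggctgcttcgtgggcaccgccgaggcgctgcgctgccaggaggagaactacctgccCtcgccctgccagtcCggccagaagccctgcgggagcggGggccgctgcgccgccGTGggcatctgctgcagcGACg
Oxt exon 2, chr2:130576591-130576792, plus strand: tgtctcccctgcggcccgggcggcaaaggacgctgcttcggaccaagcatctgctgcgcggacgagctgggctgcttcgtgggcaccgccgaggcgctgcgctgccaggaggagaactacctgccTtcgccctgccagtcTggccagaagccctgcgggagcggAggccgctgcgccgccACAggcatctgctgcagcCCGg

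The exons were identical at 193 of 202 positions (95.5%), and all 9 differences lay in the last part, after an identical run of 125 bases. A 52-base read placed inside the shared stretch fits both messages: 76 windows of 52 bases occur in both transcripts, which is 14.4% of those in Avp and 15.6% of those in Oxt. These shares count single windows, while the libraries were read as pairs, and the share of read pairs that fit both messages was not counted. No other gene of GENCODE M21 held any of these windows. The deposited counts show the sharing directly. The estimated counts of Avp and of Oxt were each whole, within 0.01, in 3 of 24 libraries, while their sum was whole in 24 of 24, so that reads were divided between the 2 genes by estimation in most libraries. The sum of the pair does not depend on that division and is given beside the single genes.

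The upstream regions were read from RefSeq (GRCm38.p6), where both genes were matched, and are shown because the 2 messages varied together. Each line holds the 250 bases before the RefSeq start, 5′ to 3′ on the gene's own strand, with matches to 6 searched motifs in capitals on either strand. The motifs were the cAMP response element TGACGTCA and the E-box bound by clock factors, CACGTG. The others were the AP-1 site TGANTCA, the nuclear receptor half-site TGACC, and the TATA box written either as TATAAA or in the variant form CATAAA. The GENCODE start lies 4 bases downstream of the RefSeq start for Oxt and 34 bases downstream for Avp.
Oxt upstream, chr2:130575919-130576168, plus strand: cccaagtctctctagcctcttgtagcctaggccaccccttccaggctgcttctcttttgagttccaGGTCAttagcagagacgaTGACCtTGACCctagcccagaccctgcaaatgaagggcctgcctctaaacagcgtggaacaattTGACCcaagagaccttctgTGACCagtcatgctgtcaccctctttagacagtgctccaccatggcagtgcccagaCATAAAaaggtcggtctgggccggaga
Avp upstream, chr2:130582589-130582838, minus strand: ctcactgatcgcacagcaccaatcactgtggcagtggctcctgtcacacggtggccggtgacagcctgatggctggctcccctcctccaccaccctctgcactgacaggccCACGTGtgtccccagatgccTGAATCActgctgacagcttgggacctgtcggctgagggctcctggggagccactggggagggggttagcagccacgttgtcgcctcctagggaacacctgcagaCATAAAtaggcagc

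Both regions held CATAAA close to the start, 27 bases before it in Oxt and 14 bases before it in Avp, a motif found in 10.8% of 32536 upstream regions of the same length. Apart from this box, the 2 regions shared only the loose E-box CANNTG, which 66.2% of the regions hold and which is left in lower case except where it is part of CACGTG. Oxt held 5 matches to TGACC, at 184, 166, 160, 102 and 83 bases before the start, a number reached by 0.043% of the regions, while 35.3% hold at least 1 match. Avp held none of these but had 1 CACGTG at 139 bases (6.04% of regions) and 1 TGANTCA at 119 bases (6.73%). Neither held TGACGTCA or TATAAA. These matches describe the letters only.

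Library totals ran from 4762703 to 9228858 estimated counts with a median of 7628245. No pair of replicates was identical in every count, which does not show whether any 2 came from the same mouse. Between them, Avp and Oxt took 0.0125% to 0.081% of a library, which is 597 to 6056 counts, so that counting error was small beside the spread between libraries. Several libraries stood apart. Saline replicates 2 and 3 carried anterior pituitary messages, with the summed level of 11 pituitary genes at 62880 and 39030 CPM (counts per 1000000 counts of the library, scaled by TMM) against a median of 4.04 over all libraries. PICK1i replicate 6 had the smallest total, and its 6 cortical markers summed to 332.2 CPM. Mitochondrial messages made up 13.5% to 16.6% of PICK1i replicates 1, 2, 5 and 6 and 7.88% to 11.2% of the other libraries. The paraventricular identity factors Otp, Sim1, Arnt2 and Pou3f2 were detected in every group, at mean levels of 81.2, 12.3, 286 and 31.4 CPM in saline, which are genes of the labelled tissue.

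Vasopressin message was abundant and highly variable in all 3 groups, and the groups overlapped almost fully. In saline Avp ran from 208 to 520 CPM with a median of 304, in PSD-95i from 230 to 436 with a median of 307, and in PICK1i from 92.2 to 608 with a median of 348. The lowest and the highest of the 24 values, PICK1i replicates 6 and 1, belonged to the same group. The group means were 316 ± 92.7 CPM for saline, 328 ± 78 for PSD-95i and 346 ± 146 for PICK1i (SD, n = 8 each), an order in which neighbours differed by far less than their spread.

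Oxytocin message stood lower and varied as much. Oxt ran from 79.5 to 286 CPM with a median of 191 in saline, from 134 to 249 with a median of 179 in PSD-95i, and from 40.1 to 263 with a median of 181 in PICK1i. PICK1i replicate 6 was again the lowest and saline replicate 3 the next, while saline replicate 6 was the highest. The group means were 187 ± 69.6 CPM for saline, 182 ± 45.2 for PSD-95i and 185 ± 77.8 for PICK1i (SD, n = 8 each), and no neighbours in that order differed beyond their spread.

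**Figure D1:**
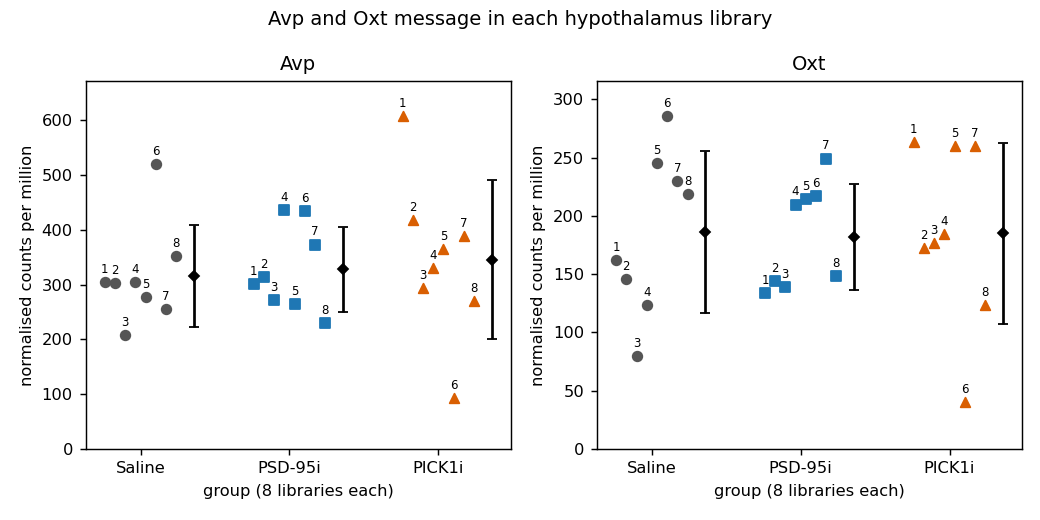
Avp (left) and Oxt (right) in TMM-scaled CPM for each library, numbered by replicate, with diamonds and bars for the mean and SD of 8 libraries. The 3 groups overlap for both genes, and PICK1i replicate 6 is the lowest library in each panel at 92.2 and 40.1.

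Per kilobase of transcript, the scale on which the 2 genes can be compared, Avp averaged 571 CPM per kilobase and Oxt 344 over all libraries. They ranked 57th and 122nd of 15531 genes with a transcript length. Their spread within groups was unusual for messages of this abundance. The SD of log2 CPM within groups was 0.54 for Avp and 0.66 for Oxt, ranks 25 and 22 of 2124 genes at or above 100 CPM, whose median SD was 0.15. In saline, PSD-95i and PICK1i in turn, the SD was 0.38, 0.34 and 0.79 for Avp and 0.61, 0.36 and 0.90 for Oxt. PICK1i holds replicate 6, the lowest library for both genes, and the ranks without it are not given. The biological coefficient of variation estimated by edgeR was 31.2% for Avp and 36.4% for Oxt, against 14.4% over all genes.

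Neither inhibitor changed Avp or Oxt detectably. In the quasi-likelihood test of edgeR with Benjamini-Hochberg adjustment over 15667 genes, PSD-95i against saline gave a log2 fold change of 0.05 ± 0.22 (SE) for Avp, with an adjusted p of 0.945. For Oxt the change was -0.04 ± 0.26, with an adjusted p of 0.974. For each gene, 4 of 8 PSD-95i libraries lay above the saline median. The 95% confidence interval reached from 0.754-fold to 1.43-fold for Avp and from 0.674-fold to 1.41-fold for Oxt. Changes inside these ranges were not excluded at this spread. Across all genes this comparison called 0% (0 of 15667), with 1719 genes (11%) at an unadjusted p under 0.05 by the same test.

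PICK1i against saline gave a log2 fold change of 0.13 ± 0.22 for Avp (edgeR adjusted p = 0.738) and of -0.01 ± 0.26 for Oxt (edgeR adjusted p = 0.988). The intervals were 0.795-fold to 1.51-fold and 0.686-fold to 1.44-fold. In this comparison 9.15% of all genes were called (1434 of 15667), 4.88% higher and 4.27% lower, and neither hormone gene was among them (28.8% of genes had an unadjusted p under 0.05). That count fell to 5 without saline replicates 2 and 3, and to 0 without PICK1i replicates 1, 2, 5 and 6 or with only the 2 groups fitted. Leaving out 1 library, it ran from 299 without PICK1i replicate 5 to 2757 without PICK1i replicate 7. Leaving out PICK1i replicate 6 moved Oxt to 0.14 and Avp to 0.27, still not called. Directly compared, PSD-95i lay at -0.08 ± 0.22 relative to PICK1i for Avp (edgeR adjusted p = 0.874) and at -0.03 ± 0.26 for Oxt (edgeR adjusted p = 0.965), in a comparison that called 0% of all genes, with 3789 genes (24.2%) at an unadjusted p under 0.05 by the same test. That 0 became 2315, 1420, 756 and 379 genes without PICK1i replicate 7, 4, 3 or 8, 1208 without saline replicates 2 and 3, 1260 with DESeq2 and 429 with limma-voom. The 3 comparisons share libraries and are not independent of each other.

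The summed count of the pair is free of the division of shared reads. Its log2 fold change from saline was 0.02 in PSD-95i (95% confidence interval -0.45 to 0.49) and 0.08 in PICK1i (-0.39 to 0.55), and PSD-95i lay at -0.06 relative to PICK1i (-0.53 to 0.41). No sum was called, with edgeR adjusted p values of 0.986, 0.849 and 0.908.

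**Figure D2:**
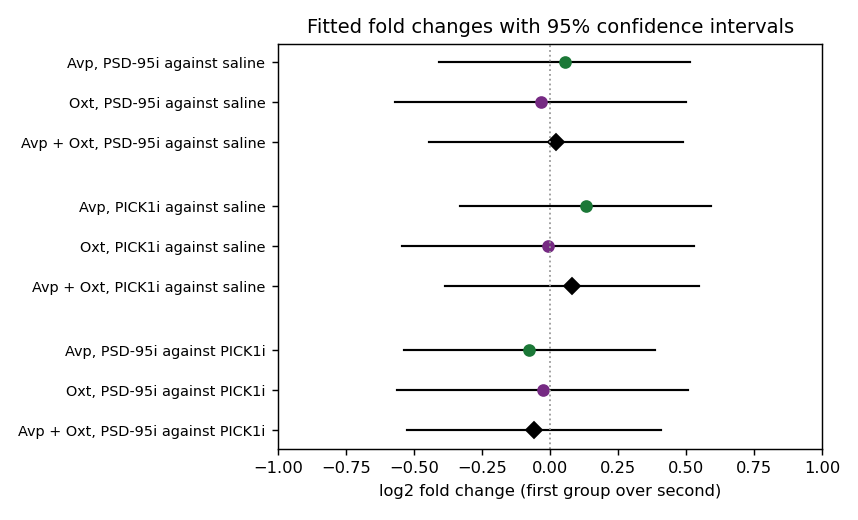
Log2 fold changes of Avp, Oxt and their summed count in the 3 comparisons, with 95% confidence intervals from the edgeR fit to 24 libraries. All 9 intervals include 0, and the estimates lie between -0.08 and 0.13.

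The 7 other annotated protein-coding genes within 100 kilobases of the pair (Ptpra, Mrps26, Ubox5, Fastkd5, Lzts3, Ddrgk1 and Itpa) were not called in any comparison, with log2 changes from -0.29 to 0.22. Their group-centred correlations with Avp ran from -0.69 for Lzts3 to 0.43 for Itpa.

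Among the receptors, Avpr1a, the vasopressin receptor of brain and vessels, averaged 5.85 CPM with saline, 6.93 with PSD-95i and 6.71 with PICK1i. Oxtr, the oxytocin receptor, averaged 11, 11 and 9.65 CPM. Lnpep, a peptidase that degrades both hormones, averaged 17.2, 19.2 and 12.2 CPM. None of the 3 passed the test in any comparison. The largest difference was in Lnpep, 0.62 on the log2 scale for PSD-95i over PICK1i, with an edgeR adjusted p of 0.099. Avpr2, the receptor of the kidney, and Avpr1b, that of pituitary corticotrophs, were too low to test: Avpr2 was at or below 0.134 CPM in every library, and Avpr1b was highest in saline replicates 2 and 3, the libraries with pituitary messages, at 1.97 and 1.0 CPM.

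The factors that specify these neurons did not pass the test in any comparison. Otp, required for paraventricular and supraoptic neurons to form, differed by 0.05 and -0.10 on the log2 scale from saline in PSD-95i and PICK1i. Sim1 differed by 0.17 and 0.04, Arnt2 by 0.16 and -0.11, and Pou3f2 by 0.11 and 0.11. Of the regulators of vasopressin message, Creb3l1, a transcription factor that acts on the Avp promoter, differed by -0.25 and -0.17, Caprin2, which binds Avp message, by -0.12 and 0.22, and Rasd1, a repressor of Avp transcription, by -0.25 and -0.31, none of them called. Nr3c1, the glucocorticoid receptor, fell by 0.30 in PICK1i (edgeR adjusted p = 0.0225), from 90.2 to 73.3 CPM. That call was lost without saline replicates 2 and 3, without PICK1i replicates 1, 2, 5 and 6 and with only the 2 groups fitted.

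Of the 11 genes of prohormone processing and granules, 0 passed the test in PSD-95i against saline, and 4 fell and 1 rose in PICK1i, where 9.15% of all genes were called. Those that fell were Chgb, a granule matrix protein (-1.34), Pcsk1 (-0.77) and Pcsk2 (-0.38), the 2 prohormone convertases, and Pam (-0.33), which amidates both hormones. Vgf, a granin-like protein, rose by 0.27. Chgb was at 3674 and 3607 CPM in saline replicates 2 and 3 and at most 543 CPM in any other library, and Pcsk1 at 142 and 100.3 CPM in those 2 and at most 50.9 CPM elsewhere. The summed level of the list was 11390 and 11120 CPM in saline replicates 2 and 3, the libraries with pituitary messages, against a median of 6309 over all libraries. Over all 106 genes of the lists around the pair, 92 could be tested: 3 were higher and 11 lower in PICK1i, with a median log2 change of 0.02, where all genes gave 4.88% higher and 4.27% lower. In the other 2 comparisons 0 were called by edgeR. At an unadjusted p under 0.05 stood 28 of the 92 in PICK1i against saline, where 28.8% of all genes did, 16 in PSD-95i against saline (11% of all genes) and 16 in PSD-95i against PICK1i (24.2% of all genes). Without saline replicates 2 and 3 none of the 92 was called in PICK1i against saline, and the count of 14 became 5 or 6 without either saline library alone, 9, 8, 3 and 6 without PICK1i replicates 1, 2, 5 and 6 each in turn.

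Of the 8 co-transmitter genes of magnocellular neurons, none was called in any comparison. Pdyn, the precursor of dynorphin that vasopressin neurons co-release, averaged 91.7 CPM with saline, 89.9 with PSD-95i and 74.5 with PICK1i. Nos1, the neuronal nitric oxide synthase, averaged 119, 135 and 104 CPM, and Nucb2, the precursor of nesfatin, 38.3, 26.6 and 29.4 CPM. Slc17a6, a vesicular glutamate transporter, averaged 180.0, 221 and 184 CPM, and Cck, the cholecystokinin precursor, 14.9, 16.1 and 26.9 CPM. Cck ran from 8.88 to 102.6 CPM within PICK1i (SD 30.8), and Nucb2 from 25.8 to 73 CPM within saline (SD 18.4). Of 10 genes induced by neuronal firing, Arc alone was called (9.15% of all genes were), higher in PICK1i than in saline by 0.77 on the log2 scale (edgeR adjusted p = 0.029). Its highest value, 66.5 CPM, lay in PICK1i replicate 6, the library rich in cortical markers, and the next highest was 25 CPM in PICK1i replicate 2, while saline ran from 11.6 to 16.9 CPM. Fos averaged 10.9, 11 and 14 CPM and was not called.

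The 2 hormone messages varied together from library to library. With log2 CPM centred on the mean of each group, Pearson's r between Avp and Oxt was 0.83 (permutation p = 7e-05) and Spearman's rho 0.64 (permutation p = 0.00114) over 24 libraries. The low end held 2 libraries. PICK1i replicate 6 lay at 6.53 and 5.34 log2 CPM for Avp and Oxt and saline replicate 3 at 7.70 and 6.32, below all other libraries for each gene. Saline replicate 3 carried pituitary messages, at 39030 CPM against a median of 4.04, and their part in its low values was not tested. Without PICK1i replicates 6 and 1, the 2 libraries farthest from the median of Avp, r was 0.63 (permutation p = 0.00366) and rho 0.53 (permutation p = 0.0154). Without saline replicate 3 and PICK1i replicate 6, a choice made after seeing the data, r was 0.57 (permutation p = 0.00868).

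Within the groups, r was 0.66 for saline, 0.61 for PSD-95i and 0.94 for PICK1i, with exact permutation p values of 0.0784, 0.112 and 0.00389 and values adjusted over the 3 groups of 0.112, 0.112 and 0.0117. The PICK1i value fell to 0.69 without replicate 6 (exact permutation p = 0.0768, n = 7), and the saline value to 0.41 without replicate 3 (exact permutation p = 0.402, n = 7). Part of the reads of the 2 genes are divided by estimation, and the part of that division in the relation was not tested.

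**Figure D3:**
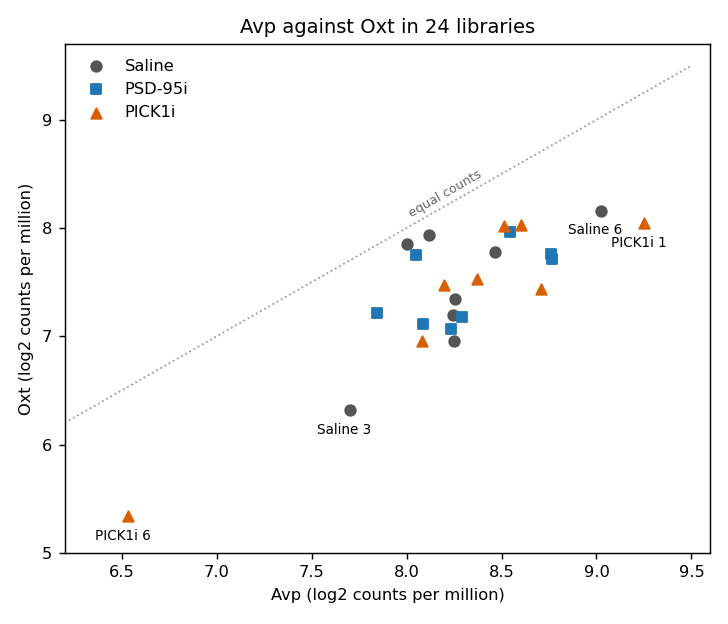
Oxt against Avp in log2 CPM, 1 point per library, with the dotted line at equal counts. All 24 points lie below the line, the 2 genes vary together (r = 0.83, centred on groups), and PICK1i replicate 6 and saline replicate 3 form the low end.

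PICK1i replicate 6 was low in more than the pair. Its Ghrh, Rax and Agrp, made in or near the arcuate nucleus, were the lowest of all 24 libraries at 1.77, 0.443 and 0.222 CPM, against next lowest values of 5.7, 2.21 and 1.52 CPM. Npy, Tac2 and Kiss1 of the arcuate list had their lowest values in saline libraries, at 23.5, 12.4 and 0.167 CPM. Nr5a1 of the ventromedial nucleus was also lowest in PICK1i replicate 6, at 2.66 CPM, while the cortical marker Slc17a7 was highest in it, at 262 CPM. In bulk tissue fewer cells of a type and less message per cell cannot be told apart, and the part of tissue composition in the low Avp and Oxt of this library was not tested. Avp and Oxt were each compared with 21 measures of the libraries, among them total counts, mitochondrial share and the mean level of 18 marker lists. By permutation, 7 of the 42 relations had an unadjusted p under 0.05 and none passed Benjamini-Hochberg adjustment, and 0 passed without 6 libraries that stood apart. The smallest p belonged to Avp with the co-transmitter list (r = 0.54, permutation p = 0.00237, adjusted p = 0.0995), and Avp with the ventromedial list had r = 0.76 (adjusted p = 0.12), which fell to 0.36 without saline replicate 3 and PICK1i replicate 6.

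The genes most like Avp across libraries, by group-centred correlation of log2 CPM among 13813 genes averaging at least 1 CPM, were Pdyn (r = 0.89), Chchd4 (0.88) and Ptprn (0.86), followed by Hmcn2, Hdhd3, Oxt, Magel2, Drc7, Vat1 and Ghrh. Pdyn encodes the dynorphin precursor, Chchd4 an import factor of the mitochondrial intermembrane space, Ptprn a protein of dense-core granule membranes, and Magel2 a product of the Prader-Willi region. Those most like Oxt were Chchd4 (0.90), Ppp1r32 (0.84) and Ip6k1 (0.84), followed by Hacd3, Ftsj2, Avp, Fxyd6, Rarres2, Saraf and Ppa1. Each hormone gene ranked 6th for the other, and Chchd4 was the only gene in both sets of 10. Without saline replicate 3 and PICK1i replicate 6 these ranks of the pair fell to 156 and 167. The other genes named then ranked from 9 (Pdyn) to 700 (Vat1) for Avp and from 4 (Ftsj2) to 743 (Rarres2) for Oxt.

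Some single marker genes gave different values for the 2 members, a difference that was not tested gene by gene. Pdyn had r = 0.89 with Avp and 0.63 with Oxt, and without those 2 libraries 0.72 and 0.04. Trh, the precursor of thyrotropin-releasing hormone made by small paraventricular neurons, had r = 0.37 with Avp and 0.65 with Oxt. Without those 2 libraries its values were 0.17 and 0.65. Otp differed less, with 0.73 and 0.67, and without those 2 libraries 0.39 and 0.32. These correlations share libraries and depth and are descriptions.

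The balance between the 2 hormone messages did not differ detectably between groups. Both counts in this ratio rest on the division of shared reads by estimation, and the part of that division in the ratio was not tested. Avp exceeded Oxt in each of the 24 libraries, on the count scale by 1.11 to 2.61 times with saline, 1.23 to 2.24 times with PSD-95i and 1.40 to 2.42 times with PICK1i. The mean log2 ratio in the saline libraries was 0.82 ± 0.46, that of the PSD-95i libraries 0.85 ± 0.31 and that of the PICK1i libraries 0.93 ± 0.31 (SD over 8 libraries). PSD-95i exceeded saline by 0.04 and PICK1i exceeded it by 0.11, and PSD-95i stood at -0.08 relative to PICK1i, with exact permutation p values over 12870 splits of 0.854, 0.564 and 0.618 and an adjusted value of 0.854 for each. PICK1i replicate 6, lowest in both messages, had a log2 ratio of 1.2, inside the range of its group. By replicate number, the lowest ratios of each group were those of replicates 5 and 7, at 0.18 and 0.15 for saline, 0.30 and 0.58 for PSD-95i and 0.49 and 0.58 for PICK1i.

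**Figure D4:**
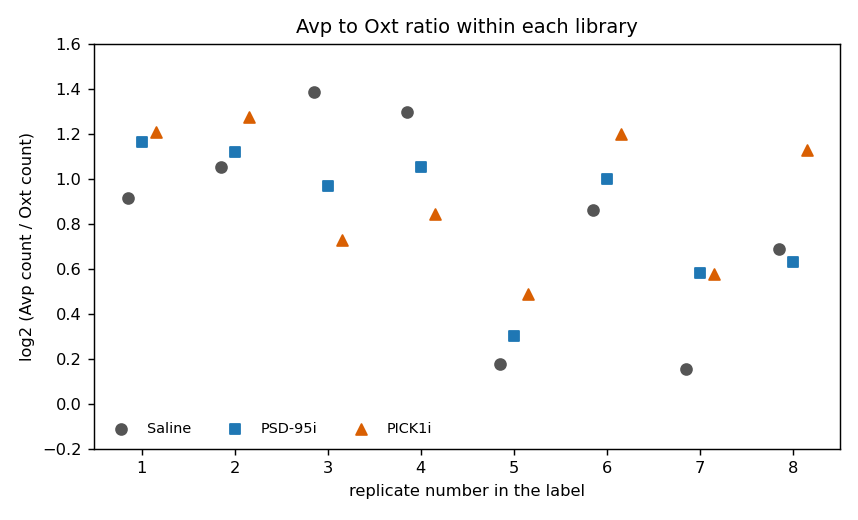
Log2 ratio of Avp to Oxt counts in each library against the replicate number of its label, 1 point per library. Replicates 5 and 7 hold the lowest points of every group, from 0.15 to 0.58, and the other 18 libraries lie at 0.63 or above.

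Within groups the ratio varied with some of the marker lists. This relation was examined after the values were seen, with the same 21 measures, and 3 relations passed Benjamini-Hochberg adjustment by Pearson's r. With the mean of Crh, Trh and Sst, peptides of small paraventricular neurons, r was -0.70 (permutation p = 0.0011, adjusted p = 0.0194) and rho -0.79 (adjusted p = 0.00021). Gene by gene, r with the ratio was -0.64 for Crh, -0.64 for Trh and 0.01 for Sst. With the mean of the identity factors r was -0.56 (permutation p = 0.00614, adjusted p = 0.043) and rho -0.60, with r of -0.13 for Otp, -0.50 for Sim1, -0.50 for Arnt2 and -0.63 for Pou3f2. That call was lost without saline replicate 3 and PICK1i replicate 6 (adjusted p = 0.0523), without the 6 libraries that stood apart (adjusted p = 0.0931) and with the replicate block (adjusted p = 0.519), all by permutation. With the mean of the 9 suprachiasmatic genes r was 0.65 (permutation p = 0.00185, adjusted p = 0.0194) and rho 0.60, from 0.04 for Grp to 0.58 for Six3, and with the replicate block it was 0.33 and no longer called (permutation, adjusted p = 0.665).

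Leaving out the 2 libraries farthest from the median of each list, r was -0.65 for the peptides, -0.54 for the factors and 0.60 for the suprachiasmatic list. The first had the same sign in each group, at -0.72 within saline, -0.79 within PSD-95i and -0.59 within PICK1i. The suprachiasmatic relation was 0.89, 0.87 and 0.13 in the same order. By Spearman's rho 7 of the 21 relations passed over 24 libraries. Among them were the lateral hypothalamic (rho -0.66), vasopressin regulator (0.59) and neuronal activation (0.51) lists. The arcuate list passed by rho (0.66, permutation, adjusted p = 0.012) and not by r (0.41, permutation p = 0.0331, adjusted p = 0.0993), with 0.90 and 0.88 in saline and PSD-95i and -0.01 in PICK1i. Without saline replicate 3 and PICK1i replicate 6 it reached 0.78 (permutation p = 5e-05, adjusted p = 0.000945), and 7 of 21 relations passed by r. The others were the ventromedial (r = 0.79), suprachiasmatic (0.69), pituicyte (0.64), vasopressin regulator (0.62), small-neuron peptide (-0.66) and lateral hypothalamic (-0.58) lists. Over 24 libraries the ventromedial and pituicyte lists had r of 0.24 and 0.22, not called. The summed arcuate list, which holds Pomc, was 13890 and 17060 CPM in saline replicates 2 and 3, against a median of 198.5. The summed suprachiasmatic list was 256.9 and 270 CPM in these 2 libraries with pituitary messages, against a median of 142. Without the 6 libraries that stood apart, these 2 among them, r was 0.84 for the arcuate list and 0.82 for the suprachiasmatic list. The part of pituitary messages in these relations was not tested. Whether the lists mark how much of each nucleus a dissection held was not tested, and the lists and the ratio come from the same libraries.

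**Figure D5:**
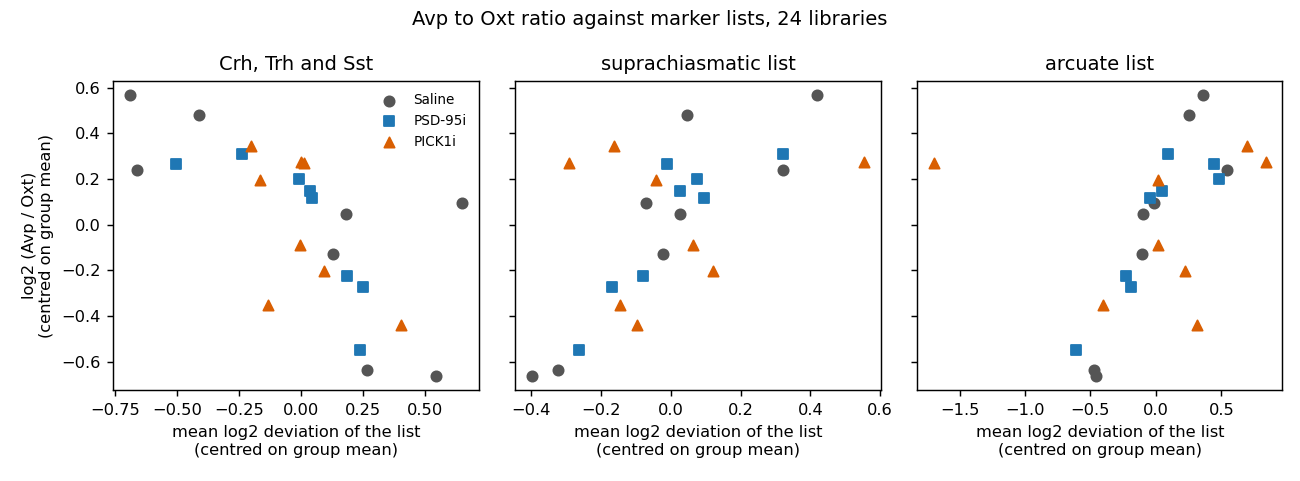
Log2 ratio of Avp to Oxt counts against the mean log2 deviation of 3 marker lists, each centred on its group mean, 1 point per library. The ratio falls with the mean of Crh, Trh and Sst (r = -0.70; Sst alone 0.01) and rises with the suprachiasmatic list (r = 0.65), and in the arcuate panel PICK1i replicate 6 stands alone at the left.

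Of single genes, Nts, the neurotensin precursor, lay at the negative end of the genes ranked against the ratio (r = -0.81), and Mamdc2 and Zkscan6 at the positive end (0.73 each). Among the listed markers, Hcrt of orexin neurons had r = -0.67, Crh and Trh -0.64 each and Pou3f2 -0.63. On the positive side Creb3l1, Junb of the neuronal activation list and Cga of the anterior pituitary list had 0.60 each, Npy 0.59 and Six3 0.58. The part of pituitary messages in these values was not tested. These genes were ranked by this measure, and the values are descriptions.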

How the data were processed

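Estimated counts per gene and per transcript were deposited by the authors, not normalised. Per the labels' protocols they came from stranded polyA libraries read as 52-base pairs, and per the submitters' processing notes from bcl2fastq 2.20.0, STAR, Salmon and GRCm38. For STAR and Salmon the version, and for the counting the annotation and strand setting, were not given in the sources used here. The 2 genes and all gene lists were chosen with earlier results of these data known. Groups and replicate numbers came from the labels.

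Counts were rounded, filtered by filterByExpr (minimum count 10; 15667 genes with 99.3% of counts), scaled by TMM and tested with edgeR 4.0.16 (quasi-likelihood, 1 fit to 24 libraries, 21 residual degrees of freedom, R 4.3.3), two-sided, adjusted by Benjamini and Hochberg over all genes, threshold 0.05. Confidence intervals are at 95%. Log2 CPM used a prior count of 2. Correlations were centred on groups and tested by 100000 permutations within groups, or by exact permutation within a group. Alternatives used DESeq2 1.42.0 and limma 3.58.1. Named genes were the pair, all tested members of the receptor, identity factor and regulator lists, up to 4 members with the smallest p of each comparison from other lists, and the 10 genes most correlated with each member. Genes named beyond this rule, among them the fifth called gene of prohormone processing and single markers beside the ratio or a library that stood apart, were chosen after their values were seen. Lists covered receptors and breakdown, prohormone processing, identity factors, message regulators, co-transmitters, parvocellular peptides, suprachiasmatic, arcuate, lateral and ventromedial genes, neuronal activation, and tissues that a dissection could also hold. Of the deposited gene identifiers, 45143 of 45706 were found in GENCODE M21. The fit and the permutation tests were tested on simulated data.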

Additional observations from a re-analysis of the deposited data

Results flagged for a closer look

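PICK1i replicate 6 stood apart from its group in both hormone messages. Its Avp lay at 6.53 log2 CPM, with the next library of the group at 8.08, a gap of 0.57 of the group's whole range. Its Oxt lay at 5.34 log2 CPM, with the next at 6.95, a gap of 0.598 of the range. In 9 groups of values checked (Avp, Oxt and their log2 ratio in 3 groups) no other library was as far from its neighbours, and chance marks about 1 group in 20. The log2 ratio of the 2 messages in this library, 1.2, was not set apart. The library also had the smallest total, the highest summed cortical markers (332.2 CPM) and the lowest summed arcuate and ventromedial markers (84.65 and 93.52 CPM), and their part in the low values was not tested.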

How the results depend on the processing

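Avp and Oxt stayed uncalled in all 3 comparisons under every alternative run: other scaling, filters, tools, groups in the fit, blocks and left-out libraries. The signs of these small changes were not stable, and the causes of the sign changes below were not tested. Leaving out saline replicates 2 and 3 gave -0.038 for Avp in PSD-95i against saline, and leaving out PICK1i replicates 1, 2, 5 and 6 gave 0.033 for Avp and 0.034 for the ratio in PSD-95i against PICK1i. Leaving out all 6 gave, for Avp, -0.038 with PSD-95i against saline, -0.069 with PICK1i and 0.032 between the inhibitors, where the ratio was 0.034. Leaving out PICK1i replicate 6 gave 0.142 for Oxt in PICK1i against saline. Leaving out saline replicate 3 and PICK1i replicate 6, chosen after seeing the data, gave -0.015 for Avp and -0.064 for the pair's sum in PSD-95i against saline, and 0.029 for Oxt in PICK1i against saline. With limma-voom, with or without consecutive library numbers as a random block, Oxt was 0.029 in PSD-95i against saline, and in PSD-95i against PICK1i Avp was 0.043 and Oxt 0.117. On log2 CPM with an exact permutation test these were 0.029, 0.042 and 0.119. The pair's sum kept its sign in PSD-95i against saline without PICK1i replicate 6 (0.021).

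The 14 listed genes called in PICK1i against saline became 5 with limma-voom, 2 with its random block and 7 with the replicate block. They became 6 without PICK1i replicate 6, and 0 with only the 2 groups fitted, without saline replicates 2 and 3, without PICK1i replicates 1, 2, 5 and 6, without all 6, and without saline replicate 3 and PICK1i replicate 6. In PSD-95i against PICK1i the count of 0 became 5 with DESeq2, 2 with limma-voom and 7 without saline replicates 2 and 3. The filter planned as stricter (1 CPM in 8 libraries) kept 16263 genes, more than the 15667 of the one reported.

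Leaving out 1 library at a time, Avp ranged from -0.021 to 0.192 with PSD-95i against saline, -0.033 to 0.273 with PICK1i in its place and -0.219 to 0.087 between the inhibitors, and in this order Oxt from -0.148 to 0.077, -0.12 to 0.142 and -0.177 to 0.061. The ratio ranged from -0.058 to 0.118, 0.02 to 0.196 and -0.141 to 0.001. Listed genes called numbered 3 to 19 in PICK1i against saline, 0 to 8 in PSD-95i against PICK1i and 0 in PSD-95i against saline. The correlation of Avp with Oxt ranged from 0.642 to 0.862.

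Over all genes, same-numbered libraries of different groups were little correlated: of 24 such pairs, 5 had deviations correlated above 0.1 (range -0.205 to 0.157). No values of different-numbered pairs are set beside these, and whether a number marks shared handling was not tested. The ratio of same-numbered libraries had r = 0.82 between saline and PSD-95i, 0.45 between saline and PICK1i and 0.70 between the inhibitors (n = 8, exact permutation p = 0.0129, 0.258 and 0.0623, adjusted 0.0387, 0.258 and 0.0935), and rho of 0.64, 0.38 and 0.86 (exact permutation p = 0.0962, 0.36 and 0.0107). Without replicates 5 and 7, on which these values rest, r was 0.45, -0.79 and 0.11. With the replicate block Avp was 0.049, 0.125 and -0.076, Oxt -0.016, 0.012 and -0.027, and the ratio 0.037, 0.114 and -0.078, in the same order. The block gave r = 0.945 for Avp with Oxt, and 1 of 21 relations of the ratio passed, that with the mean of Crh, Trh and Sst (r = -0.703, permutation p = 0.00064). Of those relations 7 passed without saline replicate 3 and PICK1i replicate 6, and 7 without all 6. With 8 libraries a group and this spread, changes inside the intervals given were not excluded, and no detection limit was computed.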

Other observations

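The 6 libraries with the lowest log2 ratio of Avp to Oxt were replicates 5 and 7 of the 3 groups, while the other 18 libraries lay between 0.63 and 1.39. Oxt took 40.0% to 47.4% of the pair's counts in these 6 libraries, against 27.7% to 39.3% elsewhere. The labels do not say that a replicate number marks shared handling. The pattern was seen in the data, and its cause was not tested.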
